A study of Mus musculus with 10 samples.

Results

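The P2Y nucleotide receptors are described here through 6 of their genes, P2ry1, P2ry2, P2ry6, P2ry12, P2ry13 and P2ry14, taken by symbol from 24421 rows of genes counted in mouse vagal sensory neurons. Of the 6 genes, P2ry1 was the only one to reach 10 CPM (counts scaled to a common library size) in both pools of any group. It was highest in nodose neurons without the Trpv1 reporter, lower in jugular neurons with the reporter, and under 1 CPM in nodose neurons with the reporter. P2ry12 and P2ry2 were each read mainly in a single pool, and P2ry6, P2ry13 and P2ry14 had 0 counts in all 10 pools.

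The samples were pools of neurons picked one by one under a microscope from the rostral (jugular) or caudal (nodose) portion of the fused vagal ganglia, in 5 groups of 2 pools. In the Trpv1 selection, mice carrying a Trpv1-driven Cre and a Cre-dependent tdTomato reporter (Trpv1-tdTomato mice) gave pools of 30 red nodose neurons (Trpv1+ nodose), 30 red jugular neurons (Trpv1+ jugular) and 15 nodose neurons without red fluorescence (Trpv1- nodose). In the capsaicin selection, neurons of C57BL/6 mice were picked after a calcium assay with 10 µM α,β-methylene ATP, a P2X receptor agonist, and 1 µM capsaicin, which opens the TRPV1 channel. The capsaicin nodose pools held 14 and 15 neurons that answered both agonists, and the capsaicin jugular pools held 15 and 16 neurons that answered capsaicin and not α,β-methylene ATP. The Trpv1 selection drew on 2 mice, and the sources used here do not say which mouse gave which pool, nor the age or sex of any animal. P-values therefore measure the spread between these pools, part of which may be technical. A Cre-dependent reporter also stays on in cells whose driver gene was active only earlier in life.

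P2Y receptors are G protein-coupled receptors for nucleotides that cells release when they are active, stretched or damaged. P2ry1 encodes a receptor for ADP, P2ry2 a receptor for ATP and UTP, and P2ry6 a receptor for UDP, and all of them act mainly through the Gq class of G proteins, phospholipase C beta and calcium release. P2ry12 and P2ry13 encode ADP receptors and P2ry14 a receptor for UDP-sugars, and these act through the Gi class, which lowers cyclic AMP. In sensory ganglia P2Y receptors are known from neurons as well as from glial cells and macrophages, beside the P2X channels that ATP opens directly.

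Total counts per pool ran from 148452506 to 167704327 in the Trpv1 selection and from 17666710 to 30810863 in the capsaicin selection, and 12153 to 13029 genes and 7889 to 10010 genes had a count. A value of 3 counts, taken as the floor of detection, was worth 0.0116 to 0.0154 CPM in the former and 0.118 to 0.176 CPM in the latter, and it covers counting error only. CPM here is scaled with size factors over all 10 pools. Every pool had counts for all 6 neuronal markers, summing to 5164 to 12020 CPM. Hoxb5 marked the nodose pools and Prdm12, Tac1 and Gfra3 the jugular pools, with the other ganglion's pools at 1.03 CPM or less. Trpv1, the capsaicin receptor, was at 17.8 to 248 CPM in the 8 Trpv1+ and capsaicin pools and at 0.0348 and 0.0334 CPM in the Trpv1- nodose pools. Selection method, sequencing core, mouse strain and depth changed together between the selections, so these cannot be told apart. In pools, fewer expressing neurons and less RNA per neuron cannot be told apart either.

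P2ry1 lies at chr3:61002795-61008982 on the plus strand of GRCm38 (GENCODE vM21). The counts in the Trpv1- nodose pools were 17930 and 19496, or 69.3 and 81.3 CPM. In the Trpv1+ jugular pools 2989 and 5199 counts gave 12.9 and 21.0 CPM. In the Trpv1+ nodose pools 7 and 155 counts gave 0.0360 and 0.760 CPM. The pools of these 3 groups did not overlap, and the order was Trpv1- nodose, then Trpv1+ jugular, then Trpv1+ nodose. The 4 capsaicin pools, 2 nodose and 2 jugular, had 0 counts of P2ry1. At their depth this allows up to 0.125 and 0.176 CPM in the nodose pools and up to 0.118 and 0.125 CPM in the jugular pools, so their place relative to Trpv1+ nodose replicate 1 was not detectable.

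**Figure D1:**
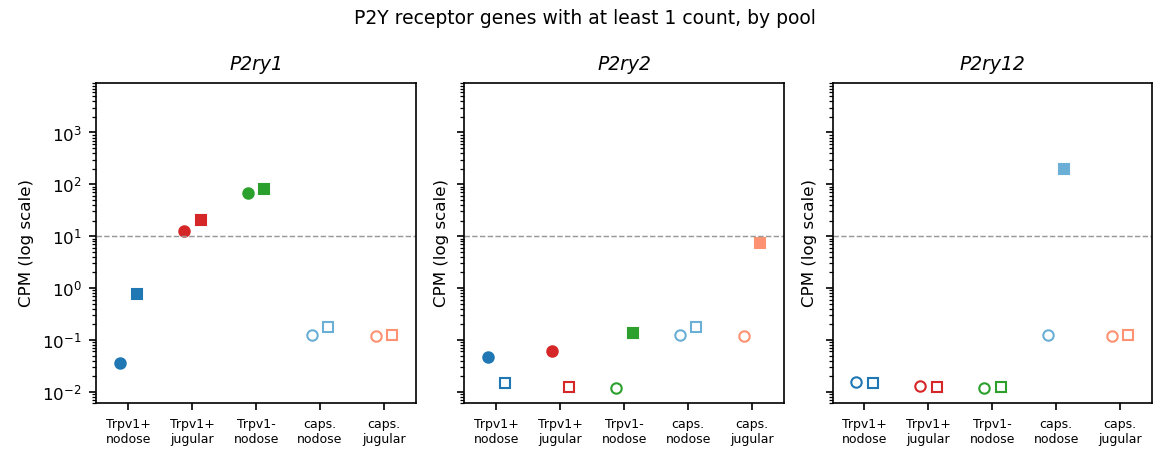
P2Y genes with at least 1 count, in CPM on a log axis, by pool. Circles are replicate 1 and squares replicate 2, open symbols stand at the pool's floor where 3 counts or fewer were read, and the dashed line is 10 CPM. P2ry1 lies above the line in the Trpv1+ jugular and Trpv1- nodose pools, P2ry12 in 1 capsaicin nodose pool, and P2ry2 in none.

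The mean level of P2ry1 was 75.3 ± 8.53 CPM in Trpv1- nodose neurons (SD, n = 2), 16.9 ± 5.75 CPM in Trpv1+ jugular neurons and 0.398 ± 0.512 CPM in Trpv1+ nodose neurons. Trpv1- nodose neurons were thus 189-fold above Trpv1+ nodose neurons in mean CPM, and 91.1-fold if the lowest pool of the former is set against the highest of the latter. Against Trpv1+ jugular neurons the mean ratio was 4.45, and lowest over highest pool 3.30. Without size factors, on plain totals, the levels were 113 and 131 CPM in Trpv1- nodose, 18.2 and 31.0 CPM in Trpv1+ jugular and 0.0453 and 1.01 CPM in Trpv1+ nodose pools, in the same order. As a ratio the replicates of Trpv1+ nodose neurons, both under 1.02 CPM on either scale, differed most from each other, though in CPM they differed least.

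Calls needed an adjusted p no higher than 0.1, a change of 2-fold or more and 10 CPM or more in both pools of some group. The first comparison asked how nodose neurons with and without the Trpv1 reporter differ. Of the 6 P2Y genes, P2ry1 alone had enough counts to be tested, and edgeR's quasi-likelihood test called 0 of them, beside 0.0527% of all genes tested (6 of 11386, all of them higher in Trpv1+ neurons). P2ry1 had a log2 fold change of -7.52 ± 1.99 (SE, Trpv1+ minus Trpv1-), an unadjusted p of 0.0122 and an adjusted p of 0.366 by edgeR. By p-value it stood at rank 300 of 11386. The non-overlap of its pools was shared by 22.4% of the genes tested in that direction. DESeq2, the tool of the study's own methods, gave P2ry1 nearly the same fold change (-7.45 ± 1.90, SE) and called it, with an adjusted p of 0.00114, in a test that called 2.37% of genes. The difference in P2ry1 between the pools was therefore past the threshold by DESeq2 and not by edgeR, and an exact permutation test of 2 against 2 pools cannot go below p = 0.33.

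The next comparison asked how nodose and jugular neurons differ within the Trpv1 selection. P2ry1 was lower in Trpv1+ nodose than in Trpv1+ jugular pools, as were 21.6% of the genes tested without overlap, and the mean ratio of jugular over nodose was 42.5. The edgeR log2 fold change of P2ry1 (nodose minus jugular) was -5.41 ± 2.61 (SE), with an adjusted p of 0.553, and again 0 of the 6 P2Y genes were called against 0.318% of 10990 genes. DESeq2 gave P2ry1 a log2 fold change of -5.36 ± 1.94 (SE) and an adjusted p of 0.0336, a call that 3.46% of genes shared. In both comparisons the Trpv1+ nodose pool with 155 counts set the size of the difference. Without it, the edgeR fold changes of P2ry1 were -10.97 against Trpv1- nodose and -8.88 against Trpv1+ jugular neurons on the log2 scale, with adjusted p of 0.514 and 0.536.

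When Trpv1- nodose neurons were set against the mean of both Trpv1+ groups, in a fit of 6 pools, P2ry1 was 4.83 ± 1.28 (SE) higher on the log2 scale. This value averages logs, so the Trpv1+ nodose pools near 0 raise it. Over Trpv1+ jugular pools alone the ratio of mean CPM was 4.45. P2ry1 had an unadjusted p of 0.00784 and an adjusted p of 0.289 by edgeR, which called 0 of the 2 P2Y genes tested there and 0.211% of 12314 genes. In this fit 9.59% of genes had both Trpv1- pools above all 4 Trpv1+ pools, as P2ry1 did. DESeq2 called P2ry1 here as well, at a log2 fold change of 4.76 ± 1.34 (SE) and an adjusted p of 0.00447, among 4.63% of all genes. Without the Trpv1+ nodose pool with 155 counts the edgeR value was 6.57, with an adjusted p of 0.302.

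**Figure D2:**
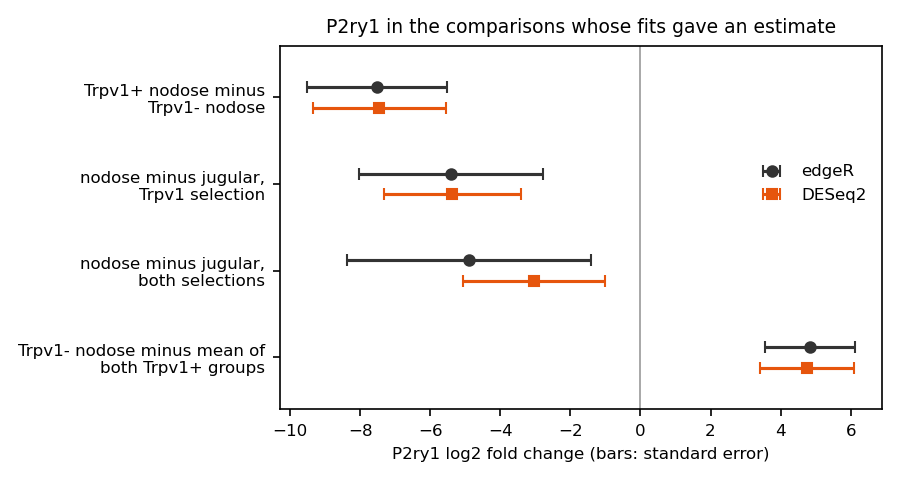
Log2 fold change of P2ry1 in the 4 comparisons whose fits gave an estimate, by edgeR (circles) and DESeq2 (squares), with standard errors as bars. P2ry1 was lower in Trpv1+ than in Trpv1- nodose neurons (-7.52 by edgeR), lower in nodose than in jugular neurons of the Trpv1 selection (-5.41), and the edgeR and DESeq2 values lie close together except in the fit of both selections. In that fit all P2ry1 counts came from the Trpv1 selection.

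The jugular neurons of the selections differed in P2ry1. It had 2989 and 5199 counts in the Trpv1+ jugular pools and 0 counts in both capsaicin jugular pools, so the lower Trpv1+ pool was at least 103-fold above 3 counts in either capsaicin jugular pool, and at least 107-fold on plain totals. Among 4826 genes with at least 10 CPM in both Trpv1+ jugular pools, 139 (2.88%) had 0 counts in both capsaicin jugular pools. Among 1761 genes, taken separately, whose Trpv1+ jugular pools both lay within 2-fold of the range of P2ry1 (6.44 to 42.0 CPM), this was true of 125 (7.10%). Satellite glia and Schwann cell markers moved with the selection too: the 12 genes summed to 3018 to 4089 CPM in the 6 pools of the Trpv1 selection and to 1608 to 2399 CPM in the capsaicin pools, with 10 to 12 and 7 to 10 genes over 3 counts. Within the Trpv1 selection these sums overlapped between groups, at 3537 and 3591 CPM in Trpv1+ nodose, 3018 and 4089 CPM in Trpv1+ jugular and 3071 and 3454 CPM in Trpv1- nodose pools. The part of these cells in the P2ry1 counts was not tested.

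Within the capsaicin selection, P2ry1 could not be tested, having 0 counts. In the fit of nodose against jugular neurons over both selections, P2ry1 had an edgeR log2 fold change of -4.88 ± 3.48 (SE) and an adjusted p of 0.804, and 0 of the 6 P2Y genes were called against 0.577% of 11959 genes. DESeq2 gave -3.04 for P2ry1, with an adjusted p of 0.343, and called 8.39% of genes. As the capsaicin pools had 0 counts of P2ry1, these values rest on the Trpv1 selection and are no separate reading. Whether the ganglion difference in P2ry1 itself depended on the selection could not be estimated, as both capsaicin groups were at 0. In the interaction fit edgeR called 0% of 11959 genes (1233 had an unadjusted p of at most 0.05, and DESeq2 called 1108, or 8.41%), P2ry1 not among either tool's calls.

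P2ry1 was next set beside the genes that define the neuron types. Piezo2, the channel of touch-sensing neurons, was at 44.1 and 79.9 CPM in Trpv1+ jugular, at 10.8 and 8.66 CPM in Trpv1- nodose and at 0.0103 and 0.0196 CPM in Trpv1+ nodose pools. It shared with P2ry1 the near absence from Trpv1+ nodose neurons, but it was lower in Trpv1- nodose than in Trpv1+ jugular pools, where P2ry1 was higher. Unlike P2ry1, Piezo2 was also present in the capsaicin jugular pools, at 92.2 and 81.9 CPM. Nefh, a neurofilament of myelinated neurons, was highest in the Trpv1- nodose pools at 538 and 479 CPM, but the 2 Trpv1+ nodose pools still held 78.9 and 168 CPM of it. Pvalb, a calcium-binding protein of large sensory neurons, was at 0 and 5.81 CPM in the Trpv1- nodose pools.

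**Figure D3:**
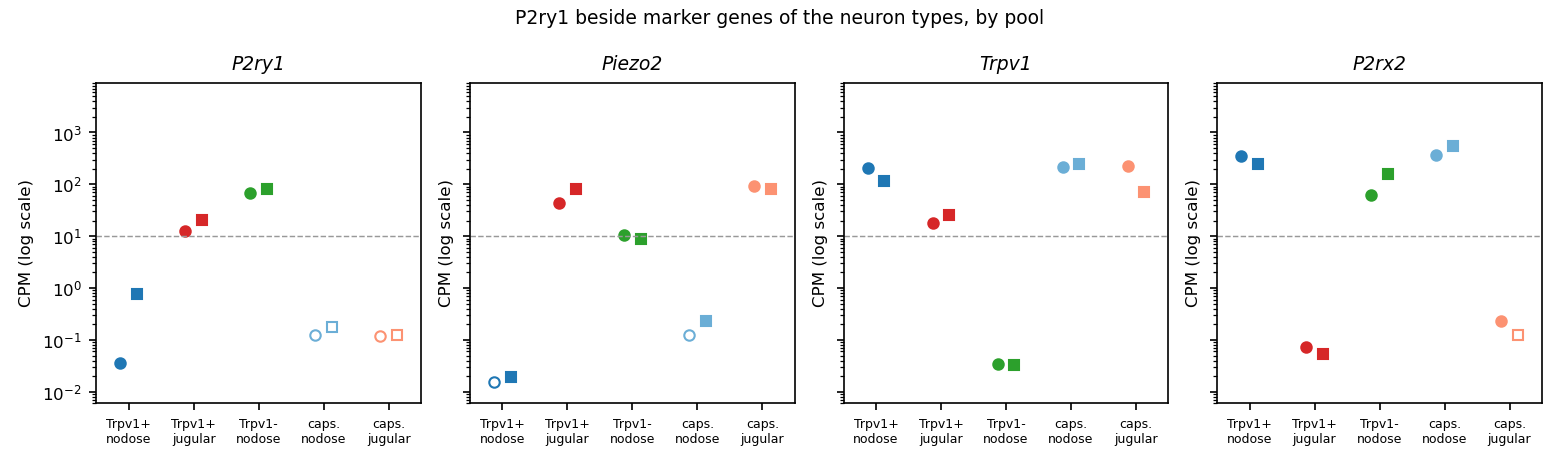
P2ry1, Piezo2, Trpv1 and P2rx2 in CPM on a log axis, by pool, with symbols as in the plot of P2Y genes. P2ry1 and Piezo2 are both under 1 CPM in Trpv1+ nodose pools, Trpv1 is under 0.04 CPM only in Trpv1- nodose pools, and P2rx2 is under 0.3 CPM in all jugular pools.

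The genes whose levels followed P2ry1 most closely were found by the Pearson correlation of log2(CPM + 1) over the 10 pools, among 7503 genes with at least 10 CPM in both pools of a group. The 5 highest were Yae1d1 (r = 0.981), Pomgnt2 (r = 0.970), Cntn4 (r = 0.966), Spsb1 (r = 0.965) and Lrrc73 (r = 0.954). These are descriptions over pools that share their library depth by selection, and they carry no p-value. Yae1d1 was at 25.9 and 41.2 CPM in Trpv1- nodose, 17.6 and 14.2 CPM in Trpv1+ jugular and 0.402 and 0.0245 CPM in Trpv1+ nodose pools, with 0 counts in the capsaicin pools. Cntn4, a cell adhesion molecule of axons, was at 36.1 and 33.9 CPM in Trpv1- nodose pools, but its Trpv1+ jugular pools stood far apart at 3.73 and 37.8 CPM. Pomgnt2, a glycosyltransferase that modifies dystroglycan, was the only 1 of the 5 with a value above 0 in a capsaicin pool, 0.667 CPM in a jugular pool. Within the 6 pools of the Trpv1 selection the 5 genes correlated with P2ry1 at r = 0.925 to 0.965, where they held ranks 21 to 79.

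**Figure D4:**
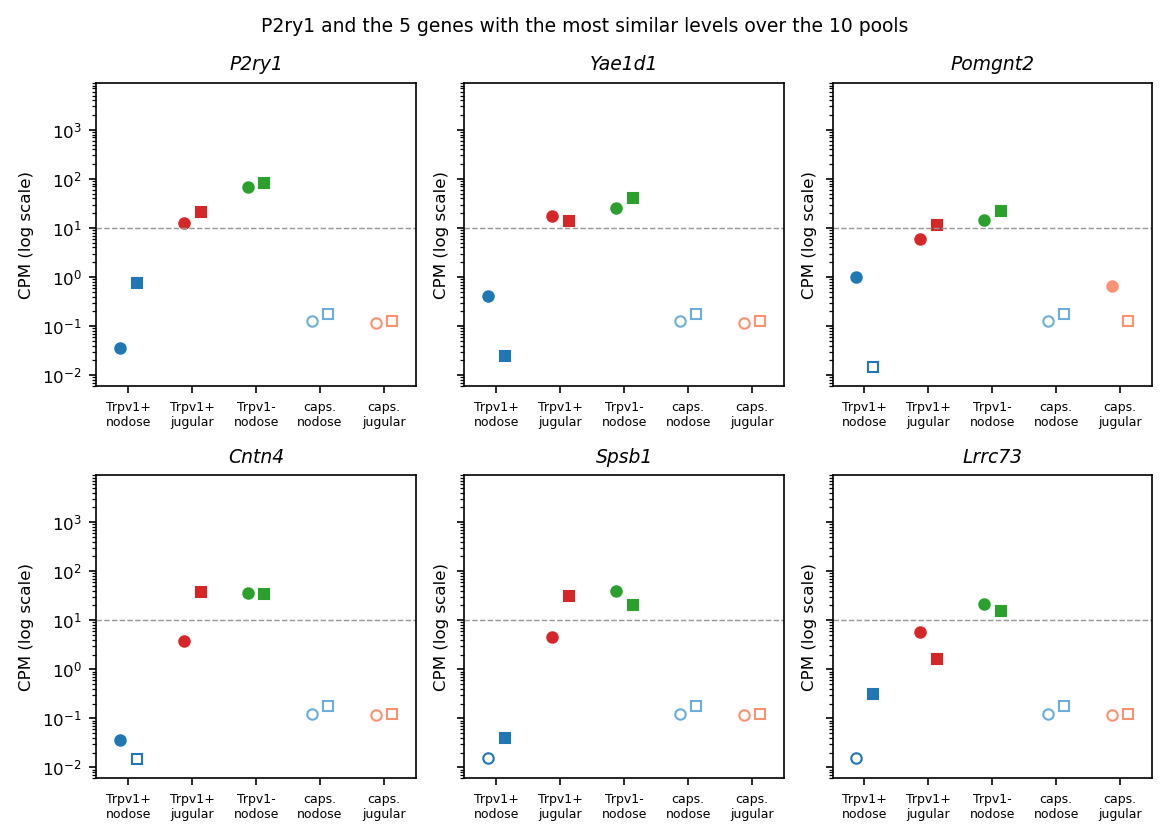
P2ry1 and the 5 genes with the highest correlation to it over the 10 pools, in CPM on a log axis, with symbols as in the plot of P2Y genes. In all 6 genes the Trpv1- nodose pools lie above 10 CPM, the Trpv1+ nodose pools lie under 1 CPM, and the capsaicin pools are at the floor except for 0.667 CPM of Pomgnt2 in 1 jugular pool.

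P2ry2, at chr7:100996568-101012866 on the minus strand, was sparse. It had 181 counts (7.55 CPM, or 10.3 CPM on plain totals) in capsaicin jugular replicate 2 and 0 counts in replicate 1. It had 9, 14 and 32 counts in 1 pool each of Trpv1+ nodose, Trpv1+ jugular and Trpv1- nodose neurons, worth 0.0463, 0.0603 and 0.134 CPM, and 0 counts in the other pool of each group and in both capsaicin nodose pools. In every group that had P2ry2 counts they came from a single pool, so no group was separated from another. It passed the filter on low counts only in the fit of 6 pools, where its log2 fold change of 1.27 ± 2.31 (SE) in Trpv1- nodose neurons had an edgeR adjusted p of 0.918.

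P2ry6, the UDP receptor gene at chr7:100937630-100974649, is the neighbour of P2ry2 on the same strand, with 21.9 kb between them. It had 0 counts in all 10 pools, which allows at most 0.0116 to 0.0154 CPM in the pools of the Trpv1 selection and 0.118 to 0.176 CPM in those of the capsaicin selection. P2ry13 and P2ry14 were at 0 counts in the same 10 pools, with the same limits. Over the whole data set 8173 of 24421 genes (33.5%) had 0 counts everywhere.

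P2ry12 was read in 1 pool. Capsaicin nodose replicate 2 held 3329 counts, or 195 CPM (108 CPM on plain totals), capsaicin nodose replicate 1 held 1 count, and the other 8 pools held 0. The pool with 3329 counts was at least 1560-fold above 3 counts in either capsaicin jugular pool. Per kilobase of exon it held 76.5 CPM of P2ry12, against 16.2 and 19.0 CPM per kilobase of P2ry1 in the Trpv1- nodose pools. Size factors widened this gap between pools of different selections. They raised P2ry12 from its plain 108 CPM and lowered P2ry1 from its plain 113 and 131 CPM. The group's 2 pools gave a mean of 97.4 ± 138 CPM (SD, n = 2), so the difference between replicates was as large as the value. P2ry12 did not pass edgeR's filter in the capsaicin comparison, where 0 of the 6 P2Y genes were tested and edgeR called 0% of 8181 genes, though 1150 of them (14.1%) had an unadjusted p of at most 0.05 and DESeq2 called 734 (6.83%). DESeq2 gave P2ry12 an adjusted p of 1.67e-10 there, but the gene was not called, since replicate 1 was under 10 CPM.

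P2ry12 is best known from microglia, where it marks the resting state, and from platelets, so macrophage markers were read in the same pool. Of 14 macrophage genes, 1 had more than 3 counts in capsaicin nodose replicate 2, Cx3cr1 at 2.57 CPM. The list summed to 2.75 CPM there, the lowest of the 10 pools, whose range reached 123 CPM. The defining genes Csf1r, C1qa, C1qb, C1qc, Aif1, Ptprc and Tyrobp were at 0 in all 10 pools. In the same pool satellite glia and Schwann cell markers summed to 2399 CPM with 10 of 12 genes over 3 counts, endothelial markers to 3.22 CPM and fibroblast markers to 0. Readings in a single pool were common in that group: of 3599 genes at 50 to 200 CPM in 1 or both capsaicin nodose pools, 1404 (39.0%) were under 1 CPM in the other pool, against 1.75% to 8.52% in the other 4 groups.

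The genes P2ry14, P2ry13 and P2ry12 lie in that order on the minus strand of chromosome 3, at 59113855 to 59153618, 59207892 to 59210882 and 59216272 to 59262871. All of them sit within the span of Med12l (59005825 to 59318682), a Mediator complex subunit gene on the opposite strand, which overlaps P2ry12 by 9 exonic bases. Med12l had 1281 and 1 counts in the Trpv1+ nodose pools, 401 and 1 counts in the Trpv1- nodose pools and 0 counts in the Trpv1+ jugular and capsaicin pools. The pool with 3329 counts of P2ry12 therefore had 0 counts of Med12l, and the pools with Med12l counts had 0 of P2ry12. P2ry1, 1740 kb further along the chromosome, shares 992 exonic bases with Gm37035, a gene annotated on the other strand, and 943 of the 4286 50-base words of its transcript also occur there. The strand setting of the counting is not given in the sources used here, and Gm37035 has no row of its own in these counts, so reads from that stretch cannot be told apart. No 50-base word was shared between any pair of the 6 P2Y genes.

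Among receptors related to the P2Y genes by sequence, P2ry4, a UTP receptor, was read at low level in 9 of 10 pools. It had 53 and 142 counts in Trpv1+ nodose, 103 and 93 in Trpv1+ jugular, 44 and 103 in Trpv1- nodose, 0 and 134 in capsaicin nodose and 19 and 7 in capsaicin jugular pools. The highest P2ry4 level was 7.84 CPM, in the capsaicin nodose pool that also held the P2ry12 counts, and the other pools were at 0 to 0.746 CPM. P2ry10, Gpr17, Gpr34, Gpr171 and Sucnr1 had 0 counts in all 10 pools, and Oxgr1, the oxoglutarate receptor, at most 1. The lysophosphatidic acid receptor Lpar4 was at 51.4 CPM in capsaicin jugular replicate 1 and at 0 in replicate 2. Its relative Lpar6 was at 29.0 CPM in that same pool and at 13.2 CPM in Trpv1- nodose replicate 2. Gpr174, another listed relative, had counts in all 10 pools. It was at 0.891 and 17.0 CPM in Trpv1+ nodose, 1.85 and 3.38 CPM in Trpv1- nodose and under 1 CPM in the other pools. None of the relatives named here was called by edgeR or DESeq2 in any of the 6 comparisons.

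Of the G proteins that P2ry1 is known to use, Gnaq and Gna11 were read in every pool. Gnaq was at 86.1 and 53.7 CPM in Trpv1- nodose, 37.4 and 79.9 CPM in Trpv1+ jugular and 110 and 35.5 CPM in Trpv1+ nodose pools, which overlapped, unlike P2ry1. The capsaicin pools held 403 to 703 CPM of Gnaq although they had no P2ry1 count. Gna11 lay at 21.4 to 64.2 CPM in the 6 pools of the Trpv1 selection and at 115 to 325 CPM in the capsaicin pools. Gna14, another Gq-class subunit, was a jugular gene in both selections. It was at 120 and 152 CPM in Trpv1+ jugular and 343 and 293 CPM in capsaicin jugular pools, and at 0.234 CPM or less in all 6 nodose pools. Its log2 fold change (nodose minus jugular) was -11.80 ± 1.06 (SE, edgeR adjusted p = 0.0453) in the Trpv1 selection and -11.34 ± 0.91 (SE, edgeR adjusted p = 0.000262) over both. With any 1 of the 4 pools left out its call in the Trpv1 selection was lost, at adjusted p of 0.325 to 0.704 by edgeR, while the call over both selections held. In the Trpv1- nodose pools, where P2ry1 was highest, Gna14 was at 0.0193 and 0.0376 CPM.

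**Figure D5:**
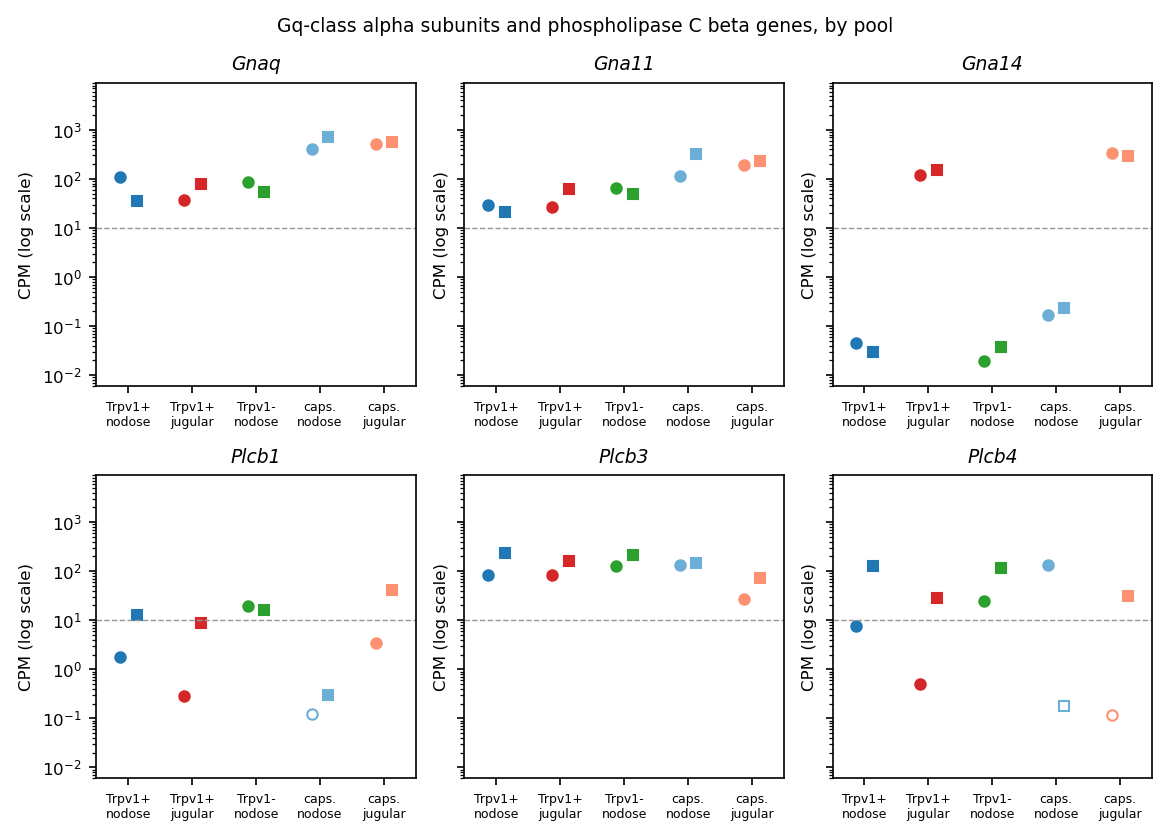
Gq-class alpha subunit genes (Gnaq, Gna11, Gna14) and phospholipase C beta genes (Plcb1, Plcb3, Plcb4) in CPM on a log axis, by pool, with symbols as in the plot of P2Y genes. Gnaq, Gna11 and Plcb3 are above 10 CPM in all pools, while Gna14 is above 100 CPM in the jugular pools and under 1 CPM in all nodose pools.

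Of the 12 alpha subunit genes, 11 were tested in the Trpv1 selection, with a median log2 fold change of -0.33 beside 0.03 over all genes. EdgeR called 2 of them, Gna14 lower and Gnas higher in nodose neurons, beside 0.318% of all genes. Gnas, the stimulatory subunit that no P2Y gene of this set mainly uses, was at 5458 and 5067 CPM in Trpv1+ nodose and 1772 and 1631 CPM in Trpv1+ jugular pools (log2 fold change 1.62 ± 0.10, SE, edgeR adjusted p = 0.0196). That call too was lost with any 1 of the 4 pools left out (adjusted p of 0.325 to 0.702) and by DESeq2 (adjusted p = 0.625). Over both selections Gnas was called by edgeR (1.42 ± 0.17, SE, adjusted p = 0.00396) and by DESeq2 (adjusted p = 0.00338). Gna15 was at 0 in all pools. Of the Gi-class subunits through which P2ry12, P2ry13 and P2ry14 act, Gnai2 was at 72.7 to 269 CPM and the related Gnao1 at 174 to 743 CPM over the 10 pools, and neither was called in any comparison.

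Of 11 phospholipase C beta, IP3 receptor and protein kinase C genes, 0 were called by edgeR in any of the 6 comparisons. Of all genes, edgeR called 0% in the capsaicin and interaction fits and at most 0.577% in the others. DESeq2 called 1 of them, Prkca, lower in nodose neurons in the capsaicin selection (adjusted p = 0.0289) and over both selections (adjusted p = 0.0213). These fits called 6.83% and 8.39% of all genes by DESeq2. Plcb3 was the most evenly read of the phospholipases, at 27.3 to 231 CPM over the 10 pools. Prkcd and Prkce, kinases that answer the diacylglycerol made by phospholipase C, were at 6.80 to 363 CPM and 47.4 to 365 CPM. Itpr3, an IP3 receptor, was at 6.76 and 13.2 CPM in the Trpv1- nodose pools, where P2ry1 was highest, and at 0.0103 CPM or less in all other pools. In the fit of 6 pools 9.59% of genes had both Trpv1- pools above all 4 Trpv1+ pools. The other IP3 receptor genes differed from Itpr3. Itpr1 was at 1.98 and 24.7 CPM in Trpv1- nodose but at 0.0721 and 8.61 CPM in Trpv1+ nodose pools. Itpr2 was at 0 and 3.24 CPM in Trpv1- nodose pools and at 67.7 CPM in capsaicin nodose replicate 1. The lists of adenylyl cyclases (9 genes) and of genes for nucleotide release (10 genes) had 0 edgeR calls in the 6 comparisons as well. DESeq2 called Adcy9 and Panx1 lower in capsaicin nodose than in capsaicin jugular neurons (adjusted p of 0.00462 and 0.000704) and over both selections. It called Lrrc8a higher in nodose neurons over both selections (adjusted p = 0.0812), and Adcy9, Panx1, Panx2 and Slc35d2 in the interaction. Of all genes DESeq2 called 6.83% in the capsaicin selection, 8.39% over both selections and 8.41% in the interaction. Adcy2, Adcy5 and Adcy8, the cyclases of highest mean level, were each above 10 CPM in 2 to 4 pools and never in both pools of a group. Among the release genes, Lrrc8a, a subunit of a volume-regulated channel, was at 8.20 to 37.5 CPM in the tdTomato-based pools and at 643 to 4430 CPM in the capsaicin pools. Panx1, a pannexin channel that passes ATP, was at 5.52 and 78.4 CPM in Trpv1- nodose, 70.4 and 55.1 CPM in Trpv1+ jugular and 35.4 and 62.7 CPM in Trpv1+ nodose pools. Those ranges overlapped, and in the capsaicin selection Panx1 was at 46.2 and 55.3 CPM in jugular pools with 0 counts in both nodose pools.

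Ectonucleotidases make and remove the nucleotides that P2Y receptors sense. Of 16 such genes 10 were tested over both selections, with a median log2 fold change of 0.38 beside -0.18 over all genes. EdgeR called 1 of them, Nt5e, and DESeq2 2, Nt5e and Acpp, beside 0.577% and 8.39% of all genes. Nt5e, which turns AMP into adenosine, was at 6.01 and 43.1 CPM in Trpv1+ jugular and 38.8 and 241 CPM in capsaicin jugular pools, and at 0.0834 CPM or less in all 6 nodose pools. Its log2 fold change (nodose minus jugular) was -11.30 ± 1.84 (SE, edgeR adjusted p = 0.0281), and 0.410 was the adjusted p without capsaicin jugular replicate 2. Acpp, the prostatic acid phosphatase that also makes adenosine, was at 35.7 and 61.7 CPM in Trpv1+ jugular and 215 and 292 CPM in capsaicin jugular pools and at 8.52 CPM or less in nodose pools. Over both selections Acpp had an adjusted p of 0.336 by edgeR and 0.000279 by DESeq2, which also called it within the capsaicin selection (adjusted p = 0.000631). Among 10 desensitisation genes, edgeR called 1 over both selections and DESeq2 called 3, Rgs4, Rgs10 and Grk4, beside the same shares of all genes. Rgs4, which shortens Gq and Gi signals, was at 170 to 618 CPM in nodose and 505 to 3109 CPM in jugular pools of the Trpv1+ and capsaicin groups. Its log2 fold change (nodose minus jugular) over both selections was -2.03 ± 0.41 (SE, edgeR adjusted p = 0.0920). That call was lost with any of 5 of the 8 pools left out. The Trpv1- nodose pools, which this fit left out, held 598 and 779 CPM of Rgs4, within the range of the jugular pools.

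Among the ionotropic ATP receptors, P2rx2 was at 356 and 244 CPM in Trpv1+ nodose and 61.5 and 156 CPM in Trpv1- nodose pools, and at 0.0732 CPM or less in the Trpv1+ jugular pools, which held P2ry1. Its log2 fold change (nodose minus jugular) was 12.20 ± 0.70 (SE, edgeR adjusted p = 0.0187) in the Trpv1 selection. The contrast of Trpv1- nodose neurons with both Trpv1+ groups gave P2rx2 4.61 ± 0.47 (SE, adjusted p = 0.0384), a positive value that comes from averaging logs with the jugular pools near 0, since both Trpv1- nodose pools were below both Trpv1+ nodose pools. The former call was lost with any 1 of the 4 pools left out (adjusted p of 0.220 to 0.702), and the latter with any of the 6 pools left out except Trpv1- nodose replicate 1 (0.226 to 0.289). In the capsaicin selection the nodose neurons had been chosen for their answer to a P2X agonist, so P2rx2 there is no independent reading. P2rx3, the partner channel, was at 77.9 to 404 CPM in all 10 pools and was not called in any comparison. P2rx6 was read mainly in the Trpv1+ jugular pools, at 39.4 and 16.5 CPM, with 0.0463 CPM or less in the nodose pools of the Trpv1 selection and 0 counts in the capsaicin pools. It shared with P2ry1 the jugular and capsaicin readings but not the level in Trpv1- nodose neurons. Its nodose minus jugular difference in the Trpv1 selection had an adjusted p of 0.321 by edgeR and 2.48e-07 by DESeq2, which called it. Trpv1- nodose pools thus held counts of P2ry1, P2rx2 and P2rx3, and Trpv1+ nodose pools of P2rx2 and P2rx3 with P2ry1 under 1 CPM. Trpv1+ jugular pools held counts of P2ry1 and P2rx3. Whether the same neurons held these genes cannot be read from pools.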

How the data were processed

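RNA of 10 pools of mouse vagal neurons was reverse transcribed with oligo-dT priming, amplified and sequenced as 50-base pairs. The deposited values are raw counts, 1 row for each gene symbol. Per the labels and methods, reads were aligned to mm10 with TopHat2 2.0.9 and Bowtie2 2.1.0.0, after CASAVA 1.8.2, with at most 2 mismatches, and counted with HTSeq. The HTSeq annotation, mode and strand setting are not given in the sources used here. Amplified reads without molecular identifiers are not independent molecules. In the files 27 symbols had been turned into dates, none of them a P2Y gene.

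All 10 pools were used, and groups came from the labels. No replicate pair was a copy (chi-square per degree of freedom 461 to 2585). CPM was computed as counts over DESeq2 size factors of all 10 pools, scaled by the geometric mean total. The main test was the quasi-likelihood test of edgeR 4.0.16 (R 4.3.3) with TMM, filterByExpr and Benjamini-Hochberg adjustment over all genes tested, fitted on the pools of each comparison, and for both selections with selection as a term. The standard error is the log2 fold change over the square root of F. DESeq2 1.42.0 was an alternative, beside other size factors, no filter, an adjusted p of 0.05, no CPM criterion, a fit shared by all pools, Rn45s left out, a replicate block and each pool left out. Scripts were tested on simulated data.

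The genes named are the 6 P2Y genes, list genes called in a comparison, otherwise up to 3 list genes of highest mean CPM, named relatives, and the 5 genes most like a P2Y gene that reached 10 CPM in both pools of a group. Other genes named in the text (Plcb1, Plcb4, Itpr1, Itpr2, Itpr3, Lpar4, Lpar6, Gpr174, Gnaq, Gna11, Gna15, Gnai2, Gnao1, Acpp, P2rx3, P2rx6 and genes that DESeq2 alone called, where outside that rule) were chosen after their values were seen. The P2Y genes and lists were chosen with earlier results of these data known. Gene positions and exon lengths are from GENCODE vM21 on GRCm38. The listed relative P2ry10b was not analysed here. Some items of the lists are not reported here.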

Additional observations from a re-analysis of the deposited data

How the results depend on the processing

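With edgeR, 0 of the 6 P2Y genes were called in each of the 6 comparisons under every alternative run. DESeq2 called 1, P2ry1, in Trpv1+ against Trpv1- nodose neurons, in nodose against jugular neurons of the Trpv1 selection and in Trpv1- nodose neurons against both Trpv1+ groups. P2ry1 kept its direction in every refit of the 4 comparisons that gave it an estimate, the interaction left aside. These 4 are not independent, since they share pools, and over both selections all P2ry1 counts came from the Trpv1 selection. In the fit shared by all 10 pools the P2ry1 value over both selections, -2.69, had an SE of 4461 and so carried no information on direction. The log2 fold change of P2ry2 reversed to -5.60 (adjusted p = 0.897) without Trpv1- nodose replicate 2, the pool that held all its counts in that group, and lay between -5.60 and 4.18 over the fits without 1 pool.

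Leaving out 1 pool moved the log2 fold change of P2ry1 between -10.97 and -6.57 against Trpv1- nodose neurons, between -8.88 and -4.48 against Trpv1+ jugular neurons, between -7.86 and -3.76 over both selections and between 4.36 and 6.57 in the fit of 3 groups. A lone pool was then assumed to vary like the others.

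The replicate numbers did not pair the pools (correlations of deviations -0.0137 to 0.0177 across 5124 to 6239 genes). With a replicate block P2ry1 was at -8.73, -6.61 and 5.31 in the first, second and last of these comparisons, with adjusted p of 0.629, 0.757 and 0.465.

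Counts over all genes depended on the tool and the filter. DESeq2 against edgeR called 321 against 6, 459 against 35, 677 against 26, 1156 against 69, 734 against 0 and 1108 against 0 genes, the last for capsaicin-selected neurons and for the interaction. Without the filter edgeR called 10, 59, 41, 222, 122 and 95, and with the block 1, 13, 9, 41, 20 and 0. Leaving out 1 pool gave 0, 0, 3 to 9, 38 to 89, 0 to 29 and 0 to 195.

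Each group had 2 pools, so a level read in 1 of them has no second reading behind it. In the capsaicin selection the lower depth left up to 0.176 CPM of a gene unseen.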
